A study of Mus musculus with 7 samples.

Results

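The replication-dependent histone genes encode the bulk of the linker histone H1 and the core histones H2A, H2B, H3 and H4 that package newly made DNA. They were taken as all genes of the expression table whose symbol starts with Hist1h, Hist2h, Hist3h or Hist4h, which gave 59 of 22556 genes. Of these, 6 encode H1, 14 encode H2A, 17 encode H2B, 10 encode H3 and 12 encode H4, counting 1 pseudogene, Hist3h2bb-ps. In the table's coordinates (genome build mm10), the 49 Hist1 genes lay on chromosome 13, the 6 Hist2 genes on chromosome 3, the 3 Hist3 genes on chromosome 11 and Hist4h4 on chromosome 6, and 0 of the 59 regions overlapped another gene of the table.

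The measurement was chromatin-associated RNA sequencing (ChrRNA-seq) of C7H8 cells, an XX mouse embryonic stem cell (mES cell) clone of Mus castaneus × 129 background with a doxycycline-inducible promoter in place of the endogenous one at the Mus castaneus Xist allele. Cells received DMSO or STM2457, an inhibitor of the m6A methyltransferase METTL3, for 6 h, and then doxycycline for 24 h with the same treatment. There were 3 DMSO libraries, 2 libraries at 10 µM, 1 at 20 µM and 1 at 30 µM, so the libraries all came from 1 clone, all carried the inducible allele and all received doxycycline. The cells grew on inactivated mouse fibroblast feeders. Of 10 fixed mES cell markers, 9 averaged 1 read pair per 1000000 mapped (RPM) or more and their sum was between 1757 and 2278 RPM, while Sox2 is listed at 0 in the 7 libraries. The 12 fibroblast markers, of which 4 averaged 1 RPM or more, summed to between 20.0 and 28.5 RPM, with the lowest sum in DMSO replicate 3 and the highest in 10 µM replicate 2.

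Replication-dependent histone genes are transcribed mainly in S phase, in nuclear bodies organised by NPAT, and mostly lack introns. Their transcripts do not end in a poly(A) tail. They end just after a short stem-loop that is bound by the stem-loop binding protein (Slbp), and are cut there by a complex that includes the U7 small nuclear RNP (with Lsm10 and Lsm11), FLASH (Casp8ap2) and the cleavage factors CPSF and symplekin. The libraries were made from RNA of the chromatin fraction after removal of ribosomal RNA, without selection for poly(A), so that transcripts of this kind could be sequenced.

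The stem-loop is the sequence that sets these genes apart, and its forms among the histone genes of the table are shown first. The letters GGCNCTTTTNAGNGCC were searched in the annotated GENCODE M21 transcripts. They were found in transcripts of 35 of the 59 histone genes, and in 47 of all 55341 annotated genes (0.0849%). There were 5 forms, given 5′ to 3′ with the 6-base arms of the stem in capitals and the 4-base loop in lower case.
Form 1, in 20 genes (3 H1, 6 H2A, 8 H2B and 3 H3): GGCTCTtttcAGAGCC
Form 2, in 6 genes (Hist1h1t, 2 H2B and 3 H3): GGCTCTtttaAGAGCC
Form 3, in Hist2h2ac: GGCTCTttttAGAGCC
Form 4, in 6 genes, all H4: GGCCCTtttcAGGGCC
Form 5, in 2 genes, Hist1h4i and Hist2h4: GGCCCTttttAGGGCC
The 8 H4 genes with a match had a form with the GGCCCT arm, and the 27 matched genes of the other types had a form with the GGCTCT arm. Of the genes that passed the filter on low values described later, 30 had a match and 17 did not. The longest annotated transcripts of genes without a match ran from 312 bases (Hist1h4k) to 2620 bases (Hist2h2be). Sequence past an annotated end was not searched, so a missing match does not show that a gene lacks the stem-loop.

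Upstream sequence from RefSeq (GRCm38.p6) was matched for 53 of the 59 genes. In the 250 bases before the annotated start, on either strand, TATAAA was present for 28 of the 53 histone genes and for 14.3% of 27025 genes, and CCAAT for 45 of the 53 and for 37.5% of all genes. CCAAT was found upstream of the 6 H1, 14 H2A, 14 H2B and 8 H3 genes matched, and of 3 of 11 H4 genes. The octamer ATTTGCAT was present for 7 of 14 H2A genes and 7 of 14 H2B genes, for 0 genes of the other types, and for 1.81% of all genes. Matches that overlapped each other were not removed. Back-to-back H2A and H2B genes start 172 to 305 bases apart, so 1 match can count for both partners. Both partners had the octamer for Hist1h2ah and Hist1h2bk, Hist1h2ae and Hist1h2bg, and Hist1h2aa and Hist1h2ba. The last 120 bases up to the annotated start are given for 4 genes, on the gene's own strand, with these motifs and their reverse complements in capitals. Hist1h1a, Hist2h2bb and Hist1h4d had the highest levels of the H1, H2B and H4 types, and Hist1h2bg stands for the H2B genes that sit back to back with an H2A gene.
Hist1h1a, chr13:23763548-23763667, plus strand: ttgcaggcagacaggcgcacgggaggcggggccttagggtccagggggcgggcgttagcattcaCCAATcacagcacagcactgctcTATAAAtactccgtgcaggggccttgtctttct
Hist2h2bb, chr3:96269580-96269699, plus strand: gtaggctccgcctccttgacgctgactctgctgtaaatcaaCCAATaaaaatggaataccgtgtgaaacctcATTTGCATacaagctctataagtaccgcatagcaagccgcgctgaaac
Hist1h2bg, chr13:23571280-23571399, plus strand: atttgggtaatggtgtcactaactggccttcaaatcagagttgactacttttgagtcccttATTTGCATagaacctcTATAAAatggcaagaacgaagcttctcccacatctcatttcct
Hist1h4d, chr13:23581448-23581567, plus strand: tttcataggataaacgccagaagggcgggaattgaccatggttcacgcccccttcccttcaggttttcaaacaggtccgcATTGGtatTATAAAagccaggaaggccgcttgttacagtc
The H1 and H4 stretches held a TATA and a CCAAT match close to the start, and both H2B stretches held the octamer. A match is a description of the letters and not of binding.

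The histone genes together took between 2520 and 17453 read pairs per library, which was between 0.0125% and 0.0744% of the 9300549 to 28030180 read pairs counted. In the mean over the 7 libraries, H1 genes made up 35.4% of the summed histone RPM, H2B genes 23.6%, H4 genes 19.0%, H3 genes 17.8% and H2A genes 4.29%. H1 genes led in 6 of the libraries with shares of 31.8% to 37.2%. The lead was narrow in DMSO replicate 3 (33.61% against 33.58% for H2B) and at 20 µM (31.8% against 31.2%), and at 30 µM H2B genes led with 36.8% against 31.4% for H1. The Hist1 cluster gave 85.2% of the sum and Hist2 12.6%. A mean of at least 1 RPM, the filter for every test across genes, was reached by 47 histone genes, among them the 10 H3 genes but only 7 of the 14 H2A genes.

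Levels between genes were compared per kilobase of gene length. The highest mean was that of Hist2h2bb, an H2B gene, at 76.5 RPM per kb, followed by the H1 gene Hist1h1a at 59.05, the H1 gene Hist1h1d at 46.5, the H3 gene Hist1h3e at 42.6 and the H4 gene Hist1h4d at 41.6 RPM per kb. Libraries differed more than these neighbours did. Hist2h2bb ranged from 42.4 to 99.9 RPM per kb over the 7 libraries and Hist1h1a from 20.9 to 101. GENCODE M21 has a long noncoding RNA, Gm42743, on the same strand over Hist2h2bb, so reads of these transcripts cannot be told apart. In GENCODE M21, unlike in the table's coordinates, Trim17 also overlaps Hist3h2a and Hist1h1e overlaps Hist1h2be, each on the same strand. The part of these overlaps in the levels was not tested. No H2A gene exceeded 6.12 RPM per kb, the mean of Hist1h2ak.

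Near-identical copies bear on these levels, since only read pairs with 1 place in the genome were kept. Of all 81-base windows (the read length) of a histone gene's annotated transcripts, the median share that also occurred in a transcript of another gene was 32.9%. It was 0.654% for H1, 43.8% for H2A, 31.9% for H2B, 50.0% for H3 and 22.2% for H4, and it exceeded 50% for 18 genes. The extremes were Hist1h3h at 93.4% and 7 genes, including Hist1h1a, Hist1h1b and Hist2h2bb, at 0.0%. Levels of the H2A and H3 genes are therefore uncertain. So are those of the 4 H2B and 2 H4 genes above 50%, among them Hist1h2bn (67.8%) and Hist1h4k (67.2%). The table holds 59 of the 70 genes that GENCODE names in these clusters, with the other 11 not analysed here.

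The summed histone level differed between libraries by 5.95-fold. It was 437 RPM in DMSO replicate 1 (95% Wilson interval 428 to 446), 488 RPM in DMSO replicate 2 (480 to 496) and 159 RPM in DMSO replicate 3 (154 to 164). At 10 µM it was 443 RPM (434 to 451) in replicate 1 and 744 RPM (733 to 755) in replicate 2. It was 271 RPM (261 to 282) at 20 µM and 125 RPM (121 to 130) at 30 µM. The intervals cover counting error only. The 3 DMSO libraries alone averaged 361 ± 177 RPM (SD, n = 3), so the spread between untreated libraries was wide: only the 10 µM replicate 2 library lay above the DMSO libraries and only the 30 µM library below them.

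**Figure D1:**
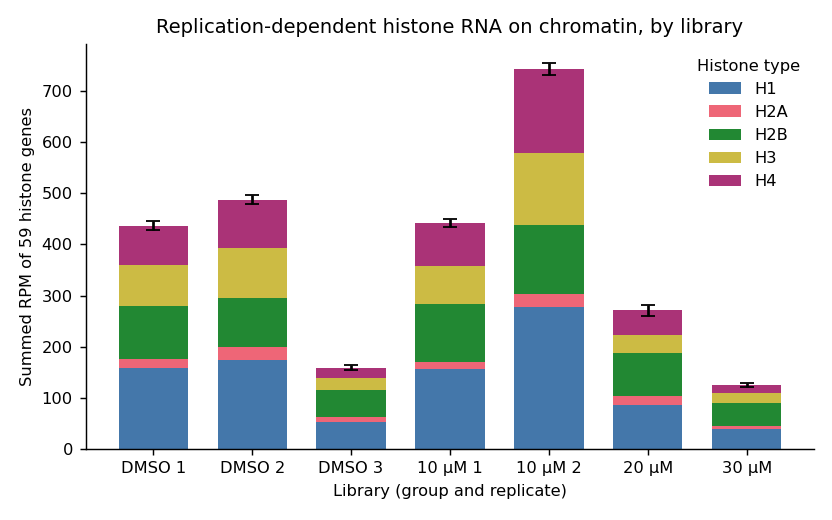
Summed RPM of the 59 replication-dependent histone genes in each library, stacked by histone type, with the 95% Wilson interval of the total as error bars. DMSO replicate 3 (159 RPM) stands with the 20 µM and 30 µM libraries (271 and 125 RPM) below the other 4 libraries (437 to 744 RPM).

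The libraries fell into 2 sets across the transcriptome. In the first principal component of 13056 autosomal genes outside the histone clusters, which held 78.8% of the variance, DMSO replicates 1 and 2 and both 10 µM libraries lay on one side, and the third DMSO library lay with 20 µM and 30 µM on the other. The labels do not say what the sets are. Both higher doses were in the second set, so that set and dose cannot be told apart except within a set. Of the 47 histone genes tested, 36 had their values in the second set all below those in the first, where 39.8% of the 13599 genes tested did, and 0 had them all above, where 18.7% of all genes did.

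**Figure D2:**
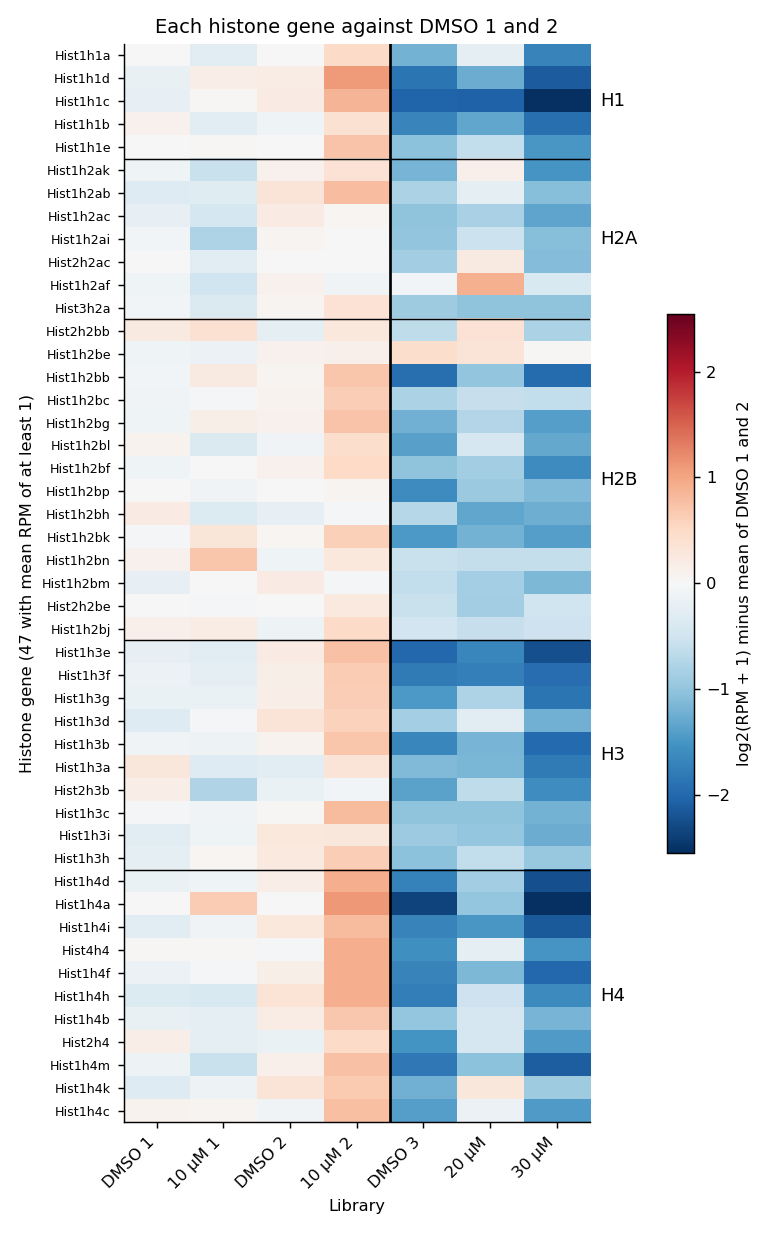
log2(RPM + 1) of each of the 47 histone genes that passed the filter, minus its mean in DMSO replicates 1 and 2, with genes ordered by type and by level and libraries by set (vertical line). DMSO replicate 3 and the 30 µM library are lower for nearly all genes, with Hist1h2be among the exceptions.

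DMSO replicate 3 had received no inhibitor, and it differed from DMSO replicates 1 and 2 in all 5 histone types. On the log2(RPM + 1) scale the median difference over the 47 genes was −1.21, against −0.18 over all genes tested. Past a fold of 1.5 there were 42 histone genes lower and 0 higher, where 25.5% of all genes were lower and 9.91% higher. With 1 library on one side this comparison has no test. The type medians were −1.70 for H4, −1.69 for H1, −1.24 for H3, −0.90 for H2A and −0.77 for H2B. The added 1 RPM understates the difference of the low H2A genes. As a ratio of summed RPM without it, DMSO replicate 3 was at 0.225 for H4, 0.275 for H3, 0.322 for H1, 0.374 for H2A and 0.535 for H2B.

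Among single genes, the ratio of DMSO replicate 3 to the mean of DMSO replicates 1 and 2 ran from 0.127 to 1.41. At the low end was Hist1h4a, an H4 gene (chr13:23760794-23761249, minus strand), with 11.9 and 12.2 RPM in DMSO replicates 1 and 2 and 1.54 RPM in replicate 3. At the high end was Hist1h2be, with 7.79 and 9.20 RPM in the first 2 replicates and 11.97 RPM in the third. Unlike the short genes, Hist1h2be is given a length of 37456 bases in the table (chr13:23583669-23621094, minus strand, a span slightly shorter than that length), so that its reads come from a long region as well as from an H2B coding sequence. The 4 genes drawn over more than 1 kb, which besides Hist1h2be are Hist1h2bc, Hist1h2bp and Hist2h2be, summed to 17.8 RPM in DMSO replicate 3 against 21.5 and 23.9 in DMSO replicates 1 and 2, a ratio of 0.783. The 55 shorter genes summed to 141 RPM against 416 and 464, a ratio of 0.321. Of these 4 genes, Hist1h2be alone was higher in DMSO replicate 3. On the log2(RPM + 1) scale Hist1h2bp was at −1.60, Hist1h2bc at −0.80 and Hist2h2be at −0.57. Outside the clusters, the 35 other genes of up to 1 kb had a median difference of −0.46, against −0.18 over all genes. The part of gene length in the histone difference was not tested.

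The comparison of 10 µM STM2457 with DMSO asks whether inhibiting METTL3 at a low dose changed histone RNA on chromatin. With limma on log2(RPM + 1) over the 3 DMSO and 2 treated libraries, 0 of the 47 histone genes were called at an adjusted p under 0.05, as were 0 of all 13599 genes (0.0%). At an unadjusted p under 0.05 there were 0 histone genes and 212 of all genes (1.56%). edgeR on the read pairs also called 0 histone genes (0 unadjusted, against 1.43% of all genes). DESeq2 called 0, with 2 unadjusted, Hist1h1d and Hist1h4a (4.26% of the 47, against 2.91% of all genes). The fitted difference was positive for 44 of the 47 genes, with a median of 0.63 (all genes 0.09). Without DMSO replicate 3 the median was 0.24 and 36 genes were positive, with 0 called.

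The largest fitted differences were those of Hist1h4a (1.66 ± 0.73 SE, limma adjusted p = 0.811), Hist1h1d (1.25 ± 0.62, adjusted p = 0.811) and Hist1h1c (1.13 ± 0.67, adjusted p = 0.811). The lowest were those of the H2A genes Hist1h2af (−0.27 ± 0.24, adjusted p = 0.811) and Hist1h2ai (−0.07 ± 0.41, adjusted p = 0.960) and of Hist1h2be (−0.16 ± 0.26, adjusted p = 0.848). None of these differences passed the test against the spread between libraries.

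The study split each replicate's wells from one batch of cells, so that DMSO and 10 µM libraries with the same replicate number form a pair. In the first pair the histone genes moved little. The median difference between 10 µM replicate 1 and DMSO replicate 1 was −0.01 (all genes −0.02), with 2 histone genes higher and 3 lower past 1.5-fold (0.824% and 0.875% of all genes). In the second pair the median was 0.50 (all genes 0.06), with 16 higher and 0 lower (1.95% and 0.316% of all genes). Across both pairs, 21 of the 47 genes were higher at 10 µM in each (44.7%, against 36.3% of all genes), 4 were lower in each (8.51%, against 26.9% of all genes), 21 were lower in the first and higher in the second (3580 of the 13599 genes), and 1 was the reverse (1423 of all genes).

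Histone types differed in this respect. The 4 genes lower in both pairs were all H2A genes, and the H2A median in the second pair was 0.00. In the same pair the medians were 0.65 for H1, 0.45 for H2B, 0.49 for H3 and 0.66 for H4. Summed levels in the second pair were 277 against 174 RPM for H1 and 165 against 94.9 RPM for H4, and 26.7 against 25.3 RPM for H2A. No test of the difference between types was run.

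**Figure D3:**
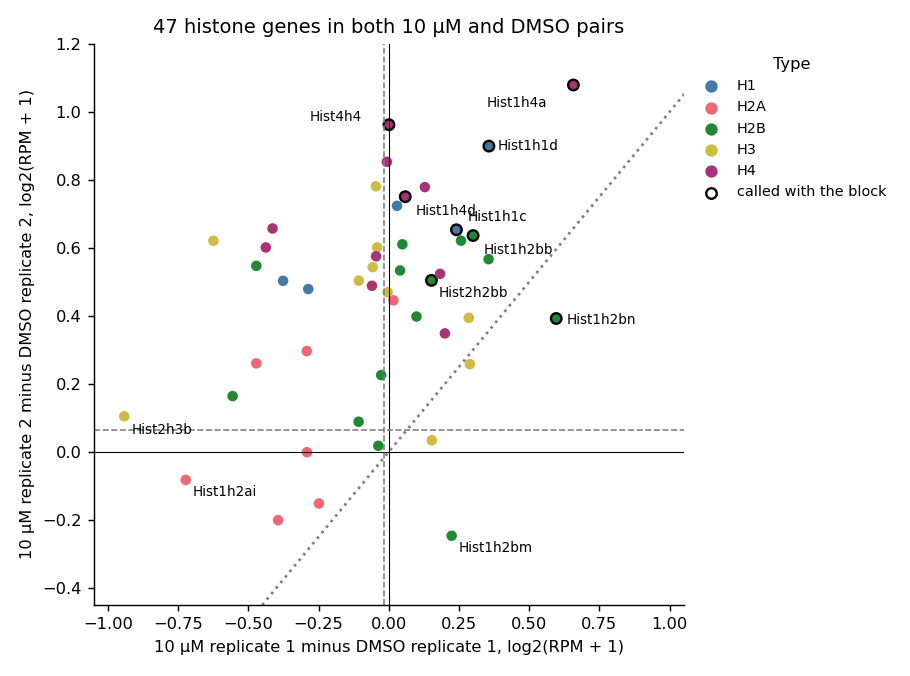
Difference between 10 µM and DMSO in the second replicate pair (vertical axis) against that in the first (horizontal axis), both on log2(RPM + 1), for 47 histone genes coloured by type. Dashed lines mark the medians of all genes (−0.02 and 0.06), the dotted line equal differences, and black rings the 8 genes called with the replicate number as a block; most points lie above the dotted line.

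With the replicate number as a block, limma called 8 histone genes higher at 10 µM and 0 lower, which was 17.0% of the 47 against 4.13% of all genes called higher, 3.38% lower and 7.5% in either direction. This fit left out DMSO replicate 3, which has no partner. It had 1 residual degree of freedom and took its error for every gene from the trend over all genes, so that a gene's own disagreement between the pairs did not enter. The unpaired fit to the same 4 libraries called 0 histone genes.

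Of the 8, the H4 gene Hist1h4a and the linker histone gene Hist1h1d had the largest blocked differences, and Hist1h1c, another linker histone gene, had the next lowest adjusted p. Hist1h1d (chr13:23555031-23555807, plus strand) was at 36.1, 46.7 and 10.6 RPM in the DMSO replicates, at 46.4 and 88.0 RPM at 10 µM, at 16.6 RPM at 20 µM and at 8.64 RPM at 30 µM. Hist1h4a was at 11.9, 12.2 and 1.54 RPM in DMSO, at 19.4 and 27.0 RPM at 10 µM, at 5.59 RPM at 20 µM and at 1.24 RPM at 30 µM. For both genes the treated libraries at 10 µM lay at or above the DMSO libraries of their pair, and the 30 µM library lay below every DMSO library. Their blocked differences were 0.63 ± 0.09 (SE, limma adjusted p = 3.36e-09) and 0.87 ± 0.14 (adjusted p = 1.17e-07).

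Hist1h1c (chr13:23738806-23739531, plus strand) was at 25.5, 34.4 and 6.43 RPM in DMSO, at 30.4 and 54.7 RPM at 10 µM, at 6.34 RPM at 20 µM and at 4.24 RPM at 30 µM, with a blocked difference of 0.45 ± 0.10 (adjusted p = 0.00105). The other 5 were the H2B genes Hist2h2bb, Hist1h2bb and Hist1h2bn and the H4 genes Hist1h4d and Hist4h4, with blocked differences from 0.33 to 0.49 and limma adjusted p from 0.0169 to 0.0450. For Hist1h4d and Hist4h4 this rested on the second pair: their differences were 0.06 and 0.00 in the first pair and 0.75 and 0.96 in the second. Hist1h2bn went the other way, with 0.60 in the first pair and 0.39 in the second, at a mean level of only 1.46 RPM.

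The dose series asks whether histone RNA followed the dose from 0 to 30 µM. With dose as a number, limma called 0 of the 47 histone genes and 0 of all genes (0.0%), with 3 histone genes (Hist1h2bh, Hist1h2bm and Hist1h3a) and 8.63% of all genes at an unadjusted p under 0.05. DESeq2 called 0 of the 32 histone genes to which it gave an adjusted p, and 129 of all genes. At an unadjusted p under 0.05 it had 11 of 47 histone genes (23.4%) and 13.3% of all genes. edgeR called 0 histone genes, with 2 unadjusted (4.26%, against 8.16% of all genes). The slope was negative for 46 of the 47, with a median of −0.30 per 10 µM (all genes −0.04).

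The steepest slopes were those of Hist1h1c (−0.64 ± 0.35 SE, limma adjusted p = 0.508), the H3 gene Hist1h3e (−0.52 ± 0.31, adjusted p = 0.508) and the H4 gene Hist1h4i (−0.51 ± 0.29, adjusted p = 0.508). The least negative were those of Hist1h2af (0.02 ± 0.16, adjusted p = 0.939), Hist1h2be (−0.01 ± 0.10, adjusted p = 0.971) and Hist1h4k (−0.04 ± 0.22, adjusted p = 0.939). DMSO replicate 3 decided the call. Without it 22 histone genes were called lower and 0 higher (11.3% of all genes were called lower). With the library set as a covariate, the fit that compares doses within sets, 0 were called (0 unadjusted; 0.199% of all genes called) and the median slope was 0.01 (all genes 0.01), with 26 genes positive and 21 negative.

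Within the second set, the 20 µM and 30 µM libraries differed from DMSO replicate 3 in opposite directions. At 20 µM the median difference was 0.48 (all genes −0.10), with 21 histone genes higher past 1.5-fold and 1 lower, Hist1h2bh, where 5.63% and 7.25% of all genes were. At 30 µM the median was −0.22 (all genes 0.04), with 0 higher and 1 lower, Hist1h3a, where 5.29% and 2.6% of all genes were. Each dose was a single library, so neither difference has a replicate check.

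The rise at 20 µM was uneven. It was largest for H4 genes, with a median of 1.10 and 8 of 11 higher past 1.5-fold, among them Hist1h4k at 4.52 RPM against 0.931 RPM in DMSO replicate 3, Hist4h4 at 6.34 against 1.91 RPM and Hist1h4a at 5.59 against 1.54 RPM. The medians were 0.59 for H2A, 0.41 for H1, 0.38 for H3 and 0.17 for H2B. Hist2h2bb, at 49.0 RPM, was as high at 20 µM as in 10 µM replicate 1 (49.4 RPM) and above the 3 DMSO libraries (44.3, 31.8 and 23.5 RPM). Short genes outside the clusters also had a positive median in that comparison (0.39 over 35 genes of up to 1 kb), and the 20 µM library was the shallowest. The part of either in the histone values was not tested.

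**Figure D4:**
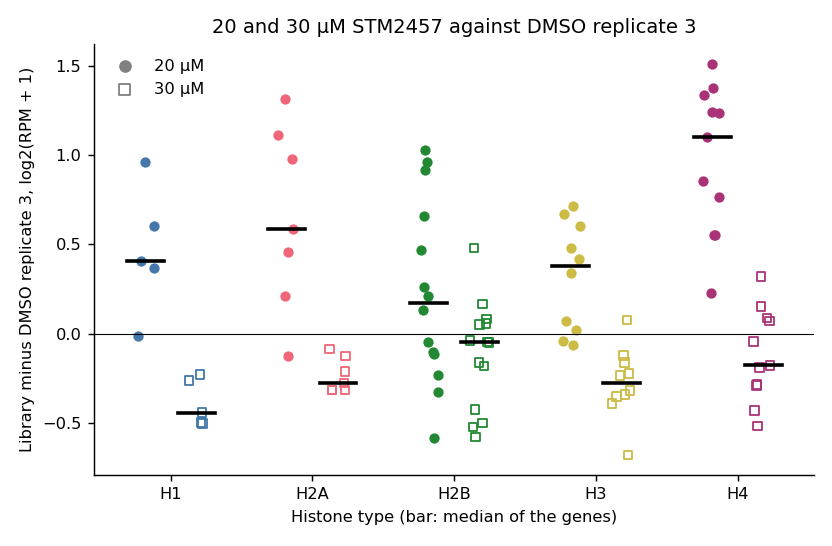
Difference of the 20 µM library (filled circles) and the 30 µM library (open squares) from DMSO replicate 3 on log2(RPM + 1), 1 point per histone gene and a bar at the median of each type. The medians are above 0 in all 5 types at 20 µM (0.17 to 1.10) and below 0 in all 5 at 30 µM (−0.05 to −0.44).

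The core histone genes followed the sum to different degrees. Among H3 genes, Hist1h3e (chr13:23561895-23562365, minus strand) was highest, at 23.1, 31.0 and 5.91 RPM in DMSO, 22.2 and 45.6 RPM at 10 µM, 7.74 RPM at 20 µM and 4.88 RPM at 30 µM. It was followed by Hist1h3f, Hist1h3g and Hist1h3d with means of 12.3, 9.44 and 7.84 RPM. Of these 4 H3 genes, Hist1h3d alone did not have its second-set values all below the others, with 7.10 RPM at 20 µM and 6.79 RPM in DMSO replicate 1.

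Among H4 genes, Hist1h4d (chr13:23581601-23581969, plus strand) was highest, at 16.2, 20.9 and 4.84 RPM in DMSO, 16.9 and 35.9 RPM at 10 µM, 9.57 RPM at 20 µM and 3.08 RPM at 30 µM. Hist1h4a, Hist1h4i and Hist4h4 followed with means of 11.3, 9.14 and 6.96 RPM. The H4 sum had the widest range of the 5 types, 10.2-fold between its highest and lowest library, against 7.65 for H3, 7.05 for H1, 5.202 for H2A and 2.91 for H2B. In every H4 gene the highest library was 10 µM replicate 2.

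The linker histone genes were led by Hist1h1a (chr13:23763667-23764412, plus strand), at 53.1, 53.8 and 22.5 RPM in DMSO, 43.3 and 75.3 RPM at 10 µM, 44.7 RPM at 20 µM and 15.6 RPM at 30 µM. At 20 µM it was thus higher than in 10 µM replicate 1, while Hist1h1c at 20 µM stood as low as in DMSO replicate 3 (6.34 and 6.43 RPM). Hist1h1b and Hist1h1e, the other H1 genes that passed the filter, had means of 19.0 and 12.1 RPM.

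The H2B sum had the narrowest range, and its genes differed in how far they followed the sum. Hist2h2bb gave 37.8 of the 89.9 RPM of the H2B mean and fell only to 23.5 RPM in DMSO replicate 3 and 20.9 RPM at 30 µM. Hist1h2be was lowest in 10 µM replicate 1 (7.57 RPM) and highest in DMSO replicate 3 (11.97 RPM). Short Hist1 H2B genes varied. Hist1h2bb was at 10.1, 11.2 and 2.10 RPM in DMSO, 12.7 and 18.02 RPM at 10 µM, 4.84 RPM at 20 µM and 2.01 RPM at 30 µM. Others were compared between DMSO replicate 3 and DMSO replicates 1 and 2 on log2(RPM + 1). Hist1h2bk was at −1.47 and Hist1h2bl at −1.39, while Hist1h2bh was at −0.73, Hist1h2bn at −0.56 and Hist1h2bj at −0.48. The added 1 RPM understates these differences in low genes.

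H2A genes were low throughout, with means from 0.272 to 3.28 RPM. Hist1h2ak was at 3.78, 4.50 and 1.26 RPM in DMSO, 2.44 and 5.58 RPM at 10 µM, 4.62 RPM at 20 µM and 0.813 RPM at 30 µM. Hist1h2ab, Hist1h2ac and Hist1h2ai followed, with means of 2.06, 1.88 and 1.61 RPM. Of the 7 H2A genes that passed the filter, 2 (Hist1h2ac and Hist3h2a) had their second-set values all below the first set. Hist1h2af was highest at 20 µM, at 1.195, 1.57 and 1.26 RPM in DMSO, 0.670 and 1.24 RPM at 10 µM, 3.44 RPM at 20 µM and 0.813 RPM at 30 µM. In that gene 68.0% of windows are shared with other genes.

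Many H2A and H2B genes sit back to back. There were 12 pairs on opposite strands with starts at most 1000 bases apart. Of these, 11 joined an H2A and an H2B gene, and the other, at 607 bases, joined Hist1h2bh and Hist1h3f. The 11 H2A and H2B pairs were 172 to 305 bases apart. In mean RPM per kb, the H2B partner was higher in 7 of the 11 pairs and the H2A partner in the other 4, among them Hist3h2a beside the pseudogene Hist3h2bb-ps. Hist1h2bg was at 13.4 RPM per kb beside Hist1h2ae at 1.28, with starts 179 bases apart, and Hist1h2bf at 7.73 beside Hist1h2ad at 0.616, 190 bases apart. The order was the opposite for Hist1h2ak at 6.12 and Hist1h2bn at 3.37 RPM per kb, 210 bases apart. Partners also differed in the share of windows found in other genes. It was 21.7% for Hist1h2ak and 67.8% for Hist1h2bn, and 32.9% for Hist1h2ae and 46.8% for Hist1h2bg. The part of lost reads in these orders was not tested. Hist1h2bc and Hist2h2be, drawn over 8283 and 2619 bases, were also below their partners per kb, with 0.884 and 0.496.

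The genes known from the testis were near the limit of detection. Hist1h1t averaged 0.356 RPM, Hist1h2aa 0.324 RPM and Hist1h2ba 0.501 RPM, and Hist1h2aa had 0 read pairs at 30 µM, which allows up to 0.128 RPM. Of the Hist3 genes, Hist3h2a averaged 1.33 RPM, Hist3h2bb-ps 0.125 RPM and Hist3h2ba 0.0875 RPM. Hist3h2ba had 0 read pairs at 20 µM and at 30 µM, where up to 0.323 and 0.128 RPM are allowed.

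The genes of the histone pathway did not share the range of the histone genes. The 25 genes of 3′ end processing and decay summed to between 1911 and 1998 RPM over the 7 libraries, and Slbp, which binds the stem-loop, was at 36.0, 42.2 and 36.8 RPM in DMSO, 35.0 and 49.0 RPM at 10 µM, 39.9 RPM at 20 µM and 31.8 RPM at 30 µM. Lsm11, of the U7 complex, followed the library sets, at 21.4, 19.9 and 13.1 RPM in DMSO, 22.7 and 23.9 RPM at 10 µM, 12.7 RPM at 20 µM and 15.3 RPM at 30 µM. Its partner Lsm10 averaged 1.68 RPM, and Zfp473, another factor of this step, 16.4 RPM. Npat, the activator of histone transcription, lay between 134 and 170 RPM. The list of 10 genes of histone transcription summed to 1670 to 1959 RPM and that of 14 histone chaperones to 3667 to 4150 RPM.

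Limma called 0 genes of these 3 lists at 10 µM or in the dose series. Without DMSO replicate 3 the dose fit called Cstf2, a 3′ end cleavage factor (−0.22 ± 0.07 SE per 10 µM, limma adjusted p = 0.0468), and Cdk2, of the transcription list (−0.36 ± 0.10, adjusted p = 0.0382), lower, and 0 chaperones. In that fit dose and set cannot be told apart, and 11.3% of all genes were called lower. With the replicate block limma called 1 of 25 genes of 3′ end processing higher at 10 µM, Casp8ap2 (0.26 ± 0.07 SE, limma adjusted p = 0.00809), and 1 of 14 chaperones, Asf1a (0.36 ± 0.09, adjusted p = 0.004999), beside 4.13% of all genes. Casp8ap2, whose protein FLASH takes part in the cut, was at 103, 118 and 137 RPM in DMSO, 126 and 139 RPM at 10 µM, 202 RPM at 20 µM and 155 RPM at 30 µM. It was thus higher in DMSO replicate 3 than in the other DMSO libraries, where histone genes were lower.

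Variant histone genes, most of which are also expressed outside S phase and make polyadenylated transcripts, moved as a sum with the sets to a smaller extent. Their sum was 466, 461 and 324 RPM in DMSO, 394 and 487 RPM at 10 µM, 325 RPM at 20 µM and 287 RPM at 30 µM. H2afz was at 33.3, 33.3 and 17.3 RPM in DMSO and at 36.6 and 17.4 RPM at 20 and 30 µM. H2afz was thus lower in DMSO replicate 3 and at 30 µM but not at 20 µM, so it did not follow the sets. H3f3a did not follow them either, at 87.5, 72.1 and 86.3 RPM in DMSO and at 77.1 and 70.3 RPM at 20 and 30 µM. H3f3b and H2afx averaged 72.0 and 7.01 RPM. With the block, limma called H1f0, a linker histone of non-dividing cells, higher at 10 µM (0.57 ± 0.16, adjusted p = 0.0111). It called Cenpa (−0.33 ± 0.08, adjusted p = 0.00133) and H2afy (−0.32 ± 0.08, adjusted p = 0.00157) lower. Of all genes, 4.13% were called higher and 3.38% lower in that fit, whose error came from the trend over all genes. In the fit to all 5 libraries without the block, limma called 0 of the 10 variant genes tested, with 0 at an unadjusted p under 0.05. In the dose series limma called 0 of the 10, and without DMSO replicate 3 it called H2afy, H2afx and Cenpa lower. In that last fit dose and set cannot be told apart, and 11.3% of all genes were called lower.

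The sums of S phase and of mitotic genes were also lower in the second set, by less than that of the histone genes. On the log2 scale, against the mean of DMSO replicates 1 and 2, the 21 S phase and origin genes summed to −0.23 in DMSO replicate 3, −0.39 at 20 µM and −0.41 at 30 µM. The 15 genes of G2 and mitosis summed to −0.35, −0.21 and −0.47. The histone genes themselves were at −1.54, −0.77 and −1.89 on the same scale. Gene by gene on log2(RPM + 1), the DMSO replicate 3 median was −0.33 for S phase and −0.55 for mitotic genes, against −0.18 over all genes. Past 1.5-fold there, 4 of the 21 S phase genes were lower and 1 higher. Of the 15 mitotic genes, 7 were lower and 0 higher. Among all genes 25.5% were lower and 9.91% higher. In 10 µM replicate 2, where the histone sum was 0.69 higher, the S phase list was at 0.05 and the mitotic list at −0.02. In bulk RNA of this kind, fewer cells in S phase and less histone RNA per cell in S phase cannot be told apart. Limma called 0 genes of either list at 10 µM, with and without the block, and 0 in the dose series. Without DMSO replicate 3 the dose fit called 8 of the 15 mitotic genes lower (Ccnb1, Ccnb2, Aurka, Aurkb, Cdc20, Cdk1, Bub1 and Top2a), and of the 21 S phase genes 3 lower and 1 higher. It called 1537 of all 13599 genes lower (11.3%) and 948 higher, and in it dose and set cannot be told apart.

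**Figure D5:**
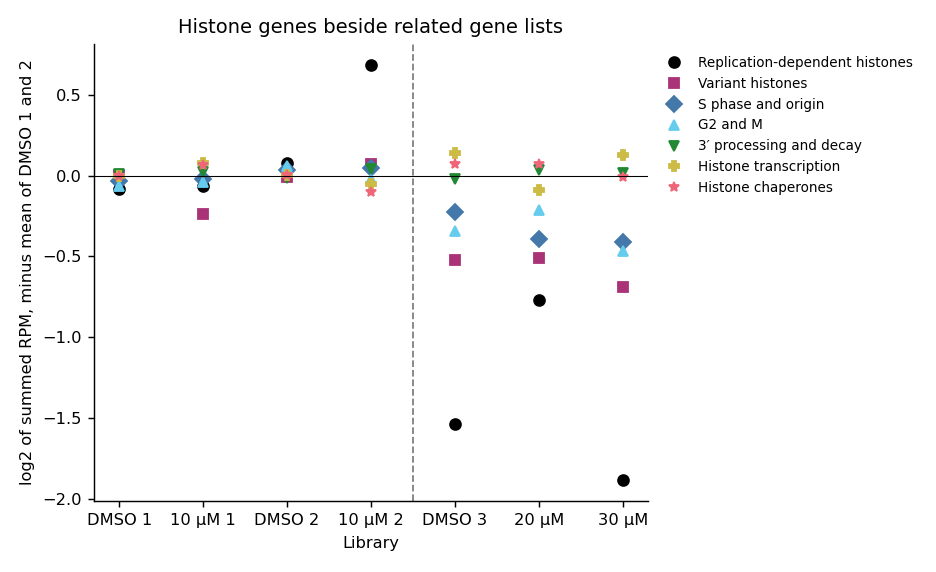
log2 of the summed RPM of the 59 histone genes and of 6 related gene lists in each library, minus the mean of DMSO replicates 1 and 2, with the 2 library sets divided by a dashed line. The histone sum runs from −1.89 to 0.69, and the other 6 lists stay between −0.69 and 0.14.

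Genes outside the clusters were ranked by likeness to the histone sum. Among 10718 genes averaging 5 RPM or more, the 5 with the highest Pearson correlation with the log2 summed histone RPM over the 7 libraries were Rpl41 (r = 0.996), Nhp2 (0.996), Ufm1 (0.995), Mrpl2 (0.994) and Ormdl2 (0.994). The libraries share their set, so these values describe likeness and carry no test. Rpl41, which encodes a very small ribosomal protein and is drawn over 1060 bases, was at 31.9, 35.7 and 10.7 RPM in DMSO, 34.7 and 53.1 RPM at 10 µM, 19.1 RPM at 20 µM and 9.80 RPM at 30 µM. Its highest value was 5.42 times its lowest, where the histone sum had a ratio of 5.95. Nhp2, Ufm1, Mrpl2 and Ormdl2 were also highest in 10 µM replicate 2 and lowest at 30 µM, over narrower ranges, with Nhp2 between 18.9 and 36.3 RPM.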

How the data were processed

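ChrRNA-seq libraries were sequenced as 81-base read pairs. Per the study's methods, the authors removed rRNA reads, aligned to an N-masked mm10 genome with STAR keeping unique alignments, counted read pairs over whole gene bodies by strand with featureCounts, and scaled each library to 1000000 mapped read pairs. The deposited values are these RPM, for 22556 genes. A second deposited table, of allelic ratios of X-linked genes, holds no histone gene and was not used.

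RPM values were whole multiples of 1 read pair (100.0% of values, tolerance 0.0001 RPM), so read pairs were recovered. Depth was 9300549 to 28030180 read pairs per library. Genes averaging 1 RPM or more (13599) were tested on log2(RPM + 1), so fold changes of low genes are understated, with limma 3.58.1 (trended eBayes, Benjamini-Hochberg, 0.05), for 10 µM against DMSO (5 libraries) and for dose (7 libraries). Single libraries were compared by a fold of 1.5, with no test. edgeR 4.0.16 and DESeq2 1.42.0 on the read pairs were alternatives. Replicates were batches of cells of 1 clone. In the fits to 5 and to 7 libraries, p-values measure spread between those libraries, including that between the 2 library sets. In the fit with the replicate number as a block, the error came from the trend over all genes instead. The replicate number was also fitted as a block, since the wells of a replicate were split from the same batch; differences between replicates 1 and 2 correlated between DMSO and 10 µM (r = 0.621 over 13599 genes, 0.417 over 47 histone genes). Scripts were tested on simulated data.

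Named genes were, in each type, the 4 with the highest mean RPM, all Hist3 and Hist4 genes, 3 testis-type genes, the 3 highest and 3 lowest fitted values and genes called. Other genes named, and the motifs, were chosen after values were seen. The members and lists were chosen with earlier results of these data known. Gene coordinates are as in the table, whose starts lie 1 base before the RefSeq start for 46 of the 59 genes.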

Additional observations from a re-analysis of the deposited data

How the results depend on the processing

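The count of histone genes called at 10 µM was 0 without and 8 with the replicate block. In the dose series it was 0 with all libraries and 22 without DMSO replicate 3, which is 1 of 3 DMSO libraries. It is the only DMSO library of the second set, so without it dose and set cannot be told apart. Another pseudocount, filter, scaling, tool or variance trend, and leaving out any other replicate, left both counts at 0. The difference between the mean log2 histone sums of 10 µM and DMSO was 0.83, and leaving out 1 replicate gave 0.31 (without DMSO replicate 3) to 1.201 (without 10 µM replicate 1). With TMM factors the sum of DMSO replicate 3 was −1.36 from DMSO replicates 1 and 2, against −1.54 as deposited.

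Fitted values of 5 named genes changed sign. The 10 µM difference of Hist1h2ai was −0.07, and leaving out 1 replicate gave −0.46 to 0.32, with 0.07 without DMSO replicate 1 and 0.13 without DMSO replicate 2. The dose slope of Hist1h4k became 0.0062 with DESeq2 and 0.21 with the library set as a covariate, and −0.22 to 0.046 when 1 replicate was left out. That of Hist1h2be became 0.026 with TMM factors, 0.0071 with totals that left out 5 genes and 0.022 with DESeq2, and −0.047 to 0.049 when 1 replicate was left out. With the library set, the slope of Hist1h3e became 0.0077 and that of Hist1h2af −0.070. The cause was not tested. The 20 µM library, with 9300549 read pairs, allows up to 0.323 RPM for a gene with 0 read pairs, which limits what it shows of the low H2A genes.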
